A study of Mus musculus with 19 samples.

Results

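Toll-like receptors are membrane proteins with which macrophages sense parts of microbes, and CD14 is a lipid-binding surface protein that delivers such molecules to several of them. The genes described here were the rows of the deposited count table with the symbols Cd14, Tlr1, Tlr2, Tlr3, Tlr4, Tlr6, Tlr7, Tlr8, Tlr9 and Tlr13, which are 10 of its 46095 rows. They were chosen by name, with earlier results of these data known. All 10 passed the filter on low counts in every fit, so none of the 10 was left out. The family genes Tlr5, Tlr11 and Tlr12, too low to test in BMDM, are not among them.

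The study sequenced RNA from cells of C57BL/6 mouse bone marrow, in 19 libraries that form 8 groups. One cell type was macrophages that had been grown out of marrow precursors (bone marrow-derived macrophages, BMDM). The other was labelled BMSC, for the adherent stromal fraction of marrow (mesenchymal stem cells). Its libraries also held macrophage marker RNA, as given below. Hypergravity mice had been centrifuged at 15 G in 15 min sessions over about 1 or 3 weeks, and control mice are listed at 0 G. In BMDM there were 3 control and 2 hypergravity libraries in the 1 week set and 2 of each in the 3 week set, and in BMSC there were 3 of each in the 1 week set and 2 of each in the 3 week set. No genetic change is named for any group, and the labels give no age. The 1 week controls have no duration in their labels and were taken as partners of the 1 week animals by the pattern of their names. The labels describe growth in M-CSF, the macrophage growth factor, for both cell types. Whether the replicates are separate animals or cultures is not said. A p-value here therefore measures only how these samples scatter, and that scatter may be technical.

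In mice, TLR1, TLR2, TLR4 and TLR6 sit mainly at the cell surface, where TLR2 pairs with TLR1 or TLR6 to bind bacterial lipopeptides and TLR4 binds lipopolysaccharide with its partner MD-2 (gene Ly96). TLR3, TLR7, TLR8, TLR9 and TLR13 sit in endosomes and read nucleic acids. All except TLR3 signal through the adaptor MyD88, and TLR3 and TLR4 use TRIF (gene Ticam1). These routes lead to the transcription factor NF-kB and to interferon regulatory factors.

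Library totals ran from 16.32 to 33.02 M counts (1e6). A floor of 3 counts, given for orientation only, came to 0.0909 to 0.184 CPM (counts per 1e6 library counts). Every member was far above that in every library. The summed macrophage markers (9 genes, of which Aif1 was listed at 0 in every library) averaged 22557 to 29612 CPM over the 8 groups, in BMSC as in BMDM. The 10 stromal markers summed to 24.2 to 51.0 CPM in the BMDM groups and to 1917 to 7916 CPM in the BMSC groups, so the libraries labelled BMSC held stromal marker RNA beside macrophage marker RNA at about the level of the BMDM. Fewer cells of a type and less RNA per cell cannot be told apart in such bulk samples. Among the BMDM libraries, replicate 3 of the 1 week controls stood apart. It differed from replicates 1 and 2 by 64.4 and 34.7 times the counting variance, against 8.83 times between those 2 libraries. Results that rest on it are given with and without it. The 1 week BMSC libraries also differed widely, by 33.8 to 97.9 times among controls and 18.6 to 47.4 times among hypergravity libraries.

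Positions are from the GENCODE M21 gene models on mm10. Tlr1 (chr5:64924679-64933563, minus strand, 5 merged exons) and Tlr6 (chr5:64952031-64960097, minus strand, 2 merged exons) are neighbours, 18468 bases apart with no coding gene between them. Tlr8 (chrX:167242696-167264329) and Tlr7 (chrX:167304929-167330558) are also neighbours, on the minus strand and 40600 bases apart. Tlr13 (chrX:106143204-106160493, plus strand) lies far from both on the same chromosome. Tlr2 (chr3:83836272-83841767, minus strand), Tlr3 (chr8:45395665-45411080, minus strand), Tlr4 (chr4:66827584-66930284, plus strand), Tlr9 (chr9:106222598-106226883, plus strand) and Cd14 stand alone. Tlr3 overlaps Gm45542 on the opposite strand, and Tlr1 and Tlr6 are similar in sequence. How the counting treated strand and shared reads is not given in the sources used, so those 3 levels are uncertain to that extent.

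Upstream sequence was taken from RefSeq (GRCm38.p6, the build of mm10), where 7 of the 10 symbols matched; Tlr4, Tlr7 and Cd14 had no entry. The sequences below are shown because these genes moved most, or moved together, in the comparison that follows: Tlr2 rose most, Tlr8 fell most, and the neighbours Tlr1 and Tlr6 rose to the same degree. Each is written 5′ to 3′ on the gene's own strand, for the stretch of the 250 bases before the RefSeq start that lies outside annotated exons, with matches to the searched motifs other than TATAAA in capitals. For Tlr1 and Tlr6, which have 2 starts each in the table, the stretch before the first listed start is shown; that of Tlr6 lies within its intron.
Tlr2, chr3:83841768-83841858, minus strand: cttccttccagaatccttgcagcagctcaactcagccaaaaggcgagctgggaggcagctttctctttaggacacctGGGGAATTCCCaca
Tlr1, chr5:64933564-64933808, minus strand: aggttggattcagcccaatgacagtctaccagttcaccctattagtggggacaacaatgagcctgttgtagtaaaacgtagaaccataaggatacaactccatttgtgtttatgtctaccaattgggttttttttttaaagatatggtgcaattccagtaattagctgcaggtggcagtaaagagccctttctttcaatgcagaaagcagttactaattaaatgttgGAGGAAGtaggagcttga
Tlr6, chr5:64959167-64959416, minus strand: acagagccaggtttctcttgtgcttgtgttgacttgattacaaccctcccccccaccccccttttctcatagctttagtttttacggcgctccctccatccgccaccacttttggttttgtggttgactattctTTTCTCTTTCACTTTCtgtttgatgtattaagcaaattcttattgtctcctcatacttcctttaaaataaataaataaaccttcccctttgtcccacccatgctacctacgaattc
Tlr8, chrX:167264330-167264579, minus strand: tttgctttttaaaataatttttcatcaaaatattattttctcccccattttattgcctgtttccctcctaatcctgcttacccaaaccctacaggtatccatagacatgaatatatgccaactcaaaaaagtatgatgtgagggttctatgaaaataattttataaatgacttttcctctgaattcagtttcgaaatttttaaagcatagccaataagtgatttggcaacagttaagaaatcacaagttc
The searched motifs, on both strands of all 250 bases, were the NF-kB consensus, the interferon-stimulated response element, the AP-1 site TGANTCA, the PU.1 site GAGGAAG (PU.1 is the lineage factor of macrophages) and TATAAA. The capitals in Tlr2 are 3 overlapping matches to the NF-kB consensus that start 173 and 172 bases before the start site. A match to that consensus stood in 3.75% of the 27025 mouse promoters searched. Tlr3 also held 1 match, 211 bases before its start and outside the stretch free of exons. In Tlr6 the capitals are 2 overlapping matches to the interferon element, found in 3.04% of promoters, and in Tlr1 they are the PU.1 site, found in 10.4%. The second listed starts differ: that of Tlr1 held no match to any searched motif, and that of Tlr6, at the outer end of the gene, held no interferon element and 3 TATAAA matches. The Tlr8 window held 2 matches to TATAAA, a motif of 13.0% of promoters, and none to the others. Tlr9 held an AP-1 site, found in 6.87% of promoters, and a PU.1 site, and Tlr13 held a PU.1 site. A match is a description of letters and not a bound site.

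Hypergravity for 1 week went with a changed set of receptors in BMDM: Cd14, Tlr2, Tlr1, Tlr6 and Tlr3 rose, Tlr8, Tlr4 and Tlr13 fell, and Tlr7 and Tlr9 did not pass the test. So 8 of 10 members were called by edgeR's quasi-likelihood test at a Benjamini-Hochberg adjusted p below 0.05. Of all genes tested, 61.4% were called, 30.5% higher and 30.8% lower, so a high share of calls is not particular to these genes. The median log2 fold change was 0.41 over the members and -0.03 over all genes, and the median size without sign was 0.96 against 0.65. All fold changes below are log2 with SE after TMM scaling, which sets libraries to a common level of most genes, and CPM values are per raw library total.

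**Figure D1:**
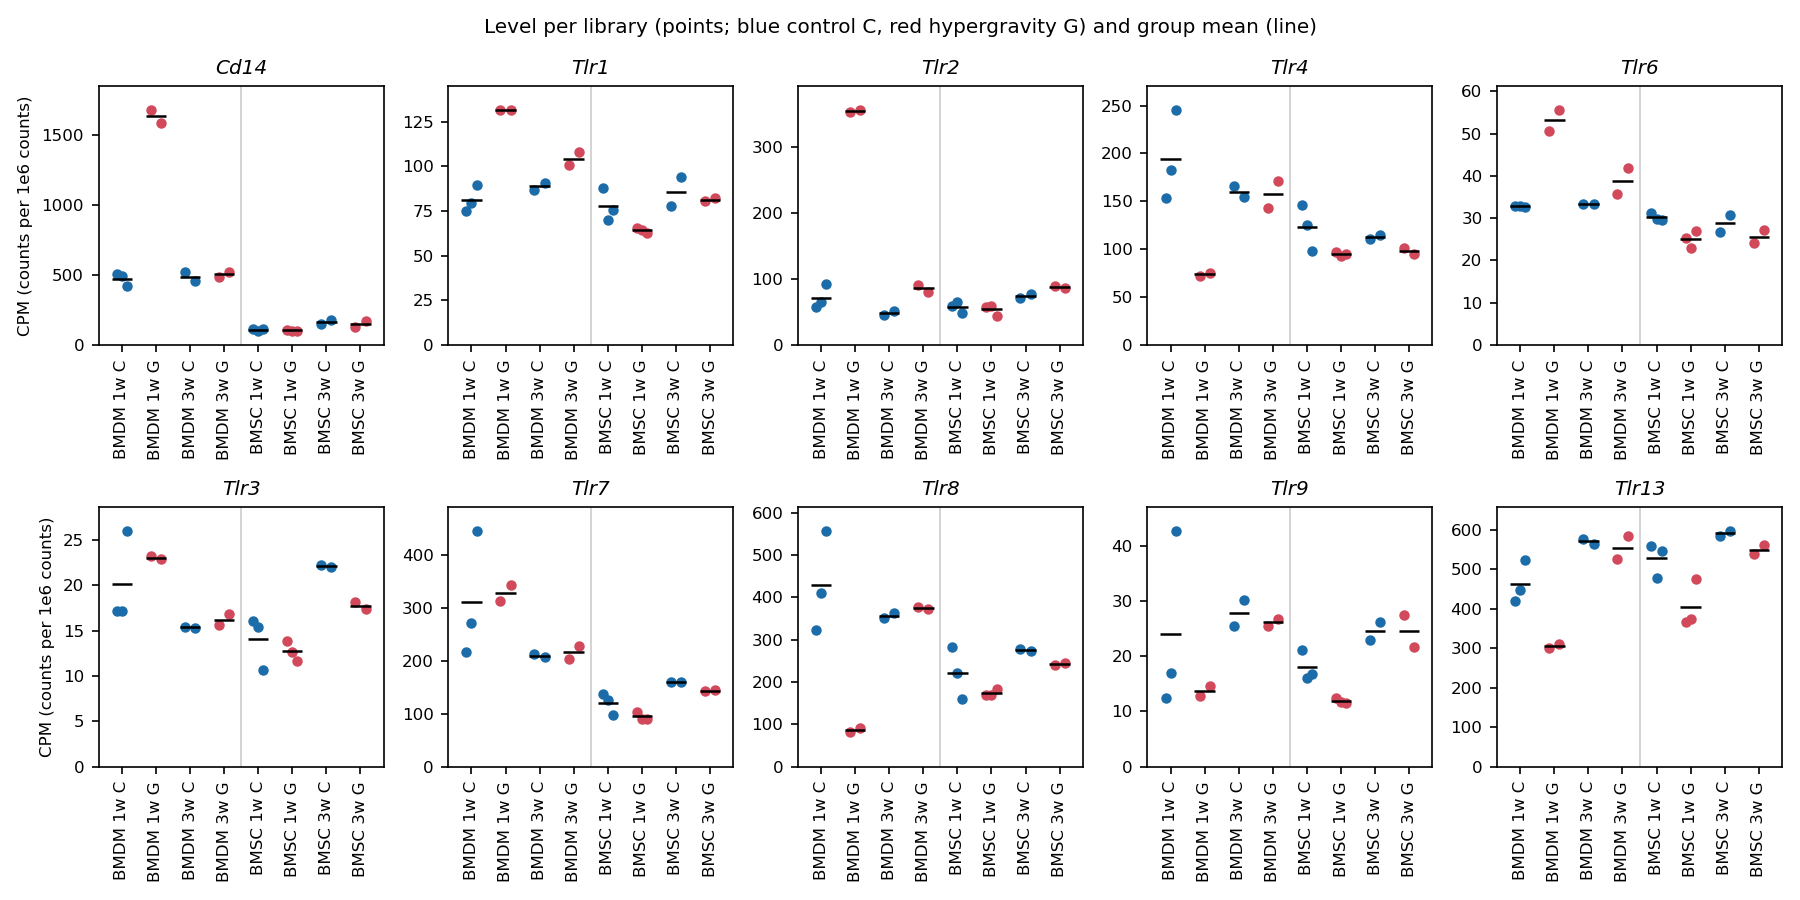
Level of each member in CPM (counts per 1e6 counts, linear axes from 0) in every library, with controls (C) in blue, hypergravity (G) in red, the set given as 1w or 3w, and the group mean as a line. In BMDM at 1 week the hypergravity points lie above all controls for Cd14, Tlr1, Tlr2 and Tlr6. They lie below all controls for Tlr4, Tlr8 and Tlr13. For these 7 genes the gap between the group means in CPM is smaller in each of the other 3 sets. After TMM scaling this did not hold for Tlr13, whose fitted log2 change at 1 week was -0.33 in BMDM and -0.41 in BMSC. The difference between those 2 changes was not called (0.08 ± 0.20, edgeR adjusted p = 0.765).

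Cd14, a gene of 1 exon (chr18:36725067-36726798, minus strand), had the largest rise in CPM. The 3 control libraries of the 1 week BMDM set stood at 506, 494 and 419 CPM and the 2 hypergravity libraries at 1683 and 1590 CPM. In the 3 week set the controls stood at 521 and 455 CPM and the hypergravity libraries at 489 and 525 CPM. The 1 week groups lay far apart, whereas the 3 week groups overlapped. The fitted 1 week change was 2.05 ± 0.11 (4.15-fold, edgeR adjusted p = 1.45e-07). In BMSC, Cd14 was lower and flatter, from 97.3 to 115 CPM over the 6 libraries of the 1 week set and from 129 to 179 CPM over the 4 of the 3 week set.

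Tlr2, the receptor shared by both lipopeptide heterodimers, rose by the largest ratio. Its level was 57.9, 65.4 and 92.7 CPM in the 1 week BMDM controls and 354 and 357 CPM after hypergravity. The hypergravity libraries agreed closely and were far above the highest control, which was replicate 3. The fitted change was 2.57 ± 0.16 (5.95-fold, edgeR adjusted p = 5.5e-07), and it was 2.77 ± 0.09 without control replicate 3. Over the 8 groups its mean of 356 CPM was followed by 87.9 CPM in 3 week hypergravity BMSC and 85.9 CPM in 3 week hypergravity BMDM, whose ranges overlapped each other. The 3 week BMSC controls came next at 74.7 CPM, with a range below both, and from there down the neighbouring groups overlapped, to 48.8 CPM in the 3 week BMDM controls.

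Tlr1 and Tlr6, the partners of Tlr2, rose to the same degree. Tlr1 went from 74.7, 79.5 and 89.5 CPM in the 1 week BMDM controls to 132 and 132 CPM, a change of 0.96 ± 0.09 (edgeR adjusted p = 8.61e-06). Tlr6 went from 32.8, 32.9 and 32.6 CPM to 50.6 and 55.7 CPM, a change of 0.96 ± 0.10 (edgeR adjusted p = 1.28e-05). For both genes every hypergravity library was above every control. In all other groups Tlr1 averaged 64.2 to 104 CPM and Tlr6 25.0 to 38.8 CPM, so each had its highest mean in the 1 week hypergravity BMDM.

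Tlr4, the lipopolysaccharide receptor to which CD14 hands its ligand, went the other way. Its 1 week BMDM controls stood at 154, 183 and 246 CPM, and the hypergravity libraries at 71.9 and 75.5 CPM. The groups did not overlap, and the change was -1.13 ± 0.17 (0.457-fold, edgeR adjusted p = 0.000234). In raw CPM this was the lowest mean of Tlr4 in the series, below the 95.1 to 160 CPM of the 6 groups outside the 1 week BMDM set. After TMM scaling of all 19 libraries this did not hold. The mean of Tlr4 was then 94.5 CPM there, against 86.5 and 90.1 CPM in the 1 week and 3 week hypergravity BMSC. So Cd14 RNA rose while Tlr4 RNA fell: per kb of exon, the ratio of Cd14 to Tlr4 was 8.24 ± 2.57 in the 3 controls and 71.3 ± 5.31 in the 2 hypergravity libraries. The ratio of Ly96, whose protein MD-2 completes the receptor complex, to Tlr4 moved from 0.572 ± 0.168 to 1.94 ± 0.066, with Ly96 itself called higher by 0.70 ± 0.13 (edgeR adjusted p = 0.00105).

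Tlr8 had the largest fall of the members. It stood at 323, 409 and 557 CPM in the 1 week BMDM controls and at 82.7 and 91.6 CPM after hypergravity. No hypergravity library came near a control, and the change was -2.03 ± 0.19 (0.244-fold, edgeR adjusted p = 6.9e-06). Tlr7, its neighbour on the X chromosome and a sensor of single-stranded RNA, did not follow. It stood at 217, 271 and 445 CPM in the controls and at 313 and 344 CPM after hypergravity, so the groups overlapped through replicate 3 of the controls. The change was 0.35 ± 0.23 (edgeR adjusted p = 0.205) with that library and 0.67 ± 0.10 (edgeR adjusted p = 2.21e-05) without it.

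Of the remaining endosomal receptors, Tlr13, a sensor of bacterial ribosomal RNA in mice, was modestly lower, and Tlr3, the sensor of double-stranded RNA, modestly higher. Tlr13 stood at 419, 448 and 524 CPM in the controls and at 301 and 312 CPM after hypergravity, without overlap, and changed by -0.33 ± 0.10 (edgeR adjusted p = 0.0135). Its call was lost without hypergravity replicate 1 (adjusted p = 0.0744) or 2 (adjusted p = 0.0596) and in the fit of all 19 libraries (adjusted p = 0.0711). Tlr3 stood at 17.2, 17.2 and 26.0 CPM in the controls and at 23.2 and 22.9 CPM after hypergravity. In raw CPM replicate 3 of the controls was thus above both hypergravity libraries. The TMM factors, which multiply library totals, were 1.05 for that control and 0.853 and 0.868 for the hypergravity libraries in the BMDM fit. Scaled with these, Tlr3 was higher in both hypergravity libraries than in every control. Its change of 0.46 ± 0.17 (edgeR adjusted p = 0.0325) was the least secure call: the adjusted p was 0.0903 without control replicate 1, 0.104 without control replicate 2, 0.121 and 0.103 without hypergravity replicate 1 or 2, and 6.43e-05 without control replicate 3. It was 0.340 when libraries were scaled by size alone and 0.0886 with only the groups compared.

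Tlr9, the sensor of unmethylated CpG DNA, gave no stable direction. Its controls stood at 12.4, 16.9 and 42.6 CPM and its hypergravity libraries at 12.7 and 14.6 CPM, and the groups overlapped. The change was -0.53 ± 0.41 (edgeR adjusted p = 0.287), it was -0.85 (adjusted p = 0.0474) without control replicate 1, and it turned to 0.16 ± 0.15 (adjusted p = 0.355) without control replicate 3. Leaving out control replicate 3 kept the calls and directions of the 8 called members and added Tlr7, which makes 9 of 10. Over the omissions of 1 library each, 6828 to 9518 of all genes were called in this comparison.

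**Figure D2:**
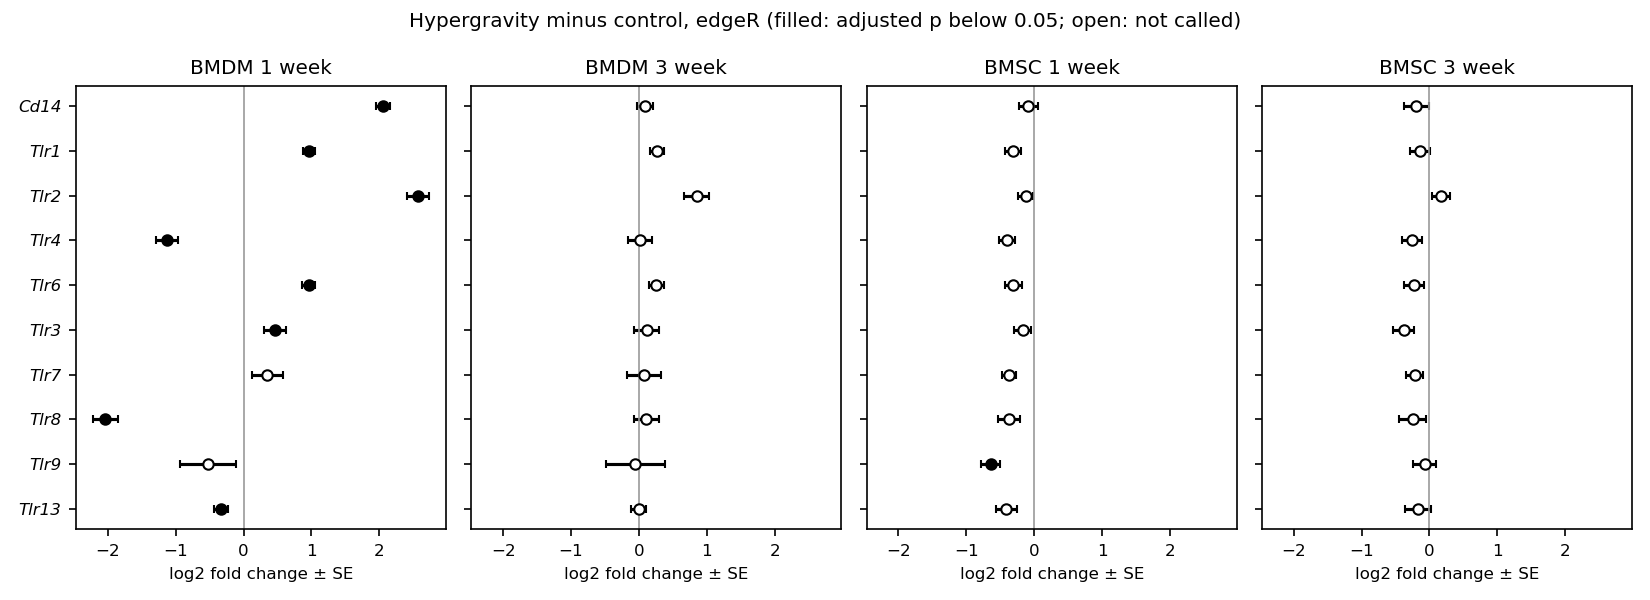
Fitted log2 fold change (± SE) of each member, hypergravity minus control, in the 4 sets; filled points passed an edgeR adjusted p of 0.05 and open points did not. In BMDM at 1 week 5 filled points lie right of 0 and 3 left of it, and outside that panel Tlr9 in BMSC at 1 week, at -0.64, is the only filled point.

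The make-up of receptor RNA was compared within each library, with levels per kb of exon summed over the 9 receptors, so that library depth and scaling cancel. In the 1 week BMDM controls Tlr8 held 29.3 ± 1.40% of the sum, Tlr13 27.0 ± 3.13% and Tlr7 18.3 ± 2.58%, and Tlr2 held 5.87 ± 0.14% (SD, n = 3). After hypergravity Tlr2 was the most abundant receptor at 32.0 ± 0.78%, ahead of Tlr7 at 21.8 ± 0.77% and Tlr13 at 19.3 ± 0.13%, and Tlr8 held 6.58 ± 0.27% (n = 2). The 4 surface receptors together went from 22.8 ± 1.23% to 50.1 ± 0.94%. In the other 6 groups they held 21.5% to 26.3% on average. The sum itself was 406 ± 96.9 CPM per kb in the controls, with a range of 325 to 514, and 369 ± 11.2 CPM per kb after hypergravity, within that range. Shares are a description and were not tested.

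**Figure D3:**
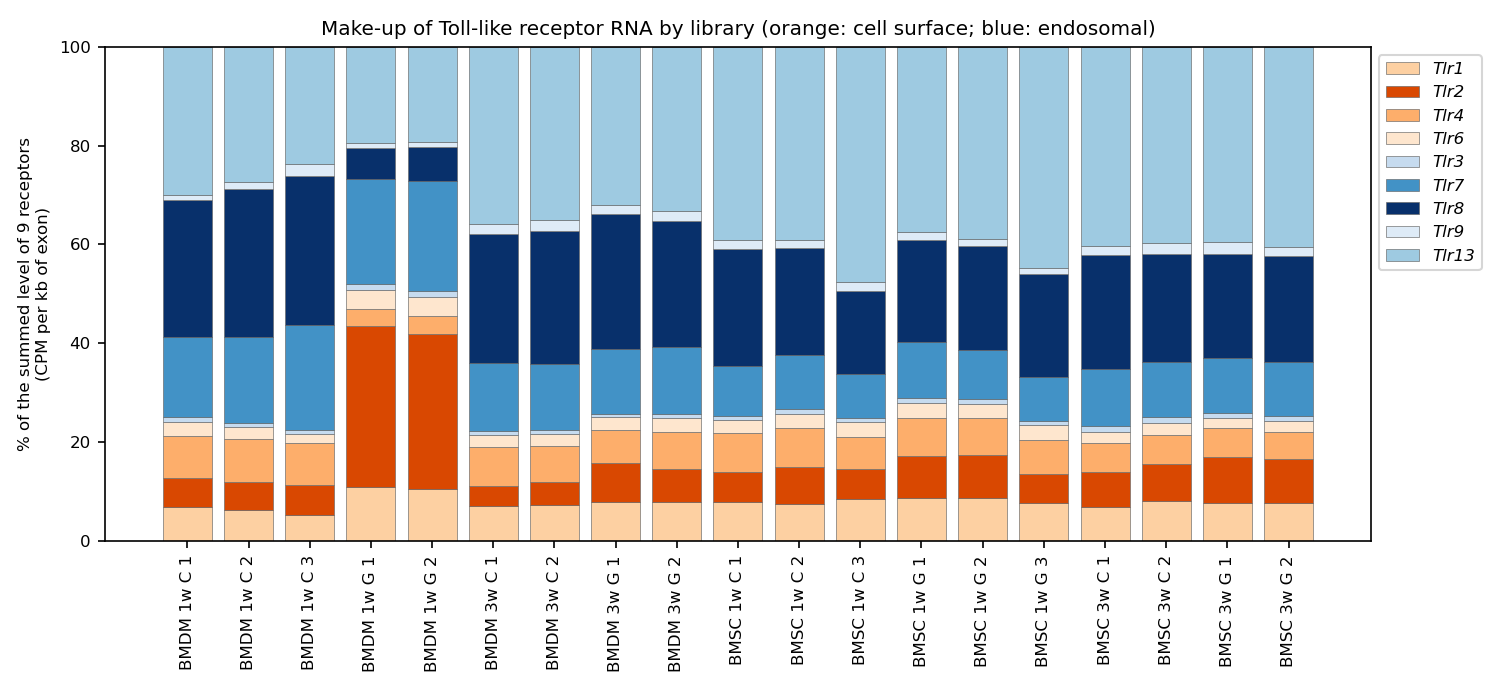
Share of each receptor in the summed level of the 9 receptors (CPM per kb of exon, in %), 1 bar per library, with surface receptors in orange at the bottom and endosomal receptors in blue. The orange part is 49.4% and 50.7% in the 2 hypergravity BMDM libraries of the 1 week set and 21.4% to 27.8% in the other 17 libraries, with Tlr2 the dark orange band.

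Ratios of members per kb of exon within a library showed which genes moved in step. Tlr1 to Tlr6 was 2.76 ± 0.27 in the 1 week BMDM controls and 2.77 ± 0.19 after hypergravity, and it averaged 2.76 to 3.55 over all 8 groups. Tlr7 to Tlr8 was 0.624 ± 0.068 in those controls and 3.31 ± 0.020 after hypergravity, and it averaged 0.480 to 0.520 in the other 6 groups. So in that comparison the neighbours on chromosome 5 kept their ratio within the replicate spread and the neighbours on the X chromosome did not. Tlr2 to Tlr4 went from 0.684 ± 0.020 to 8.90 ± 0.25. Tlr2 to Tlr1 went from 0.975 ± 0.155 to 3.00 ± 0.017, so Tlr2 rose beyond its partner.

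**Figure D4:**
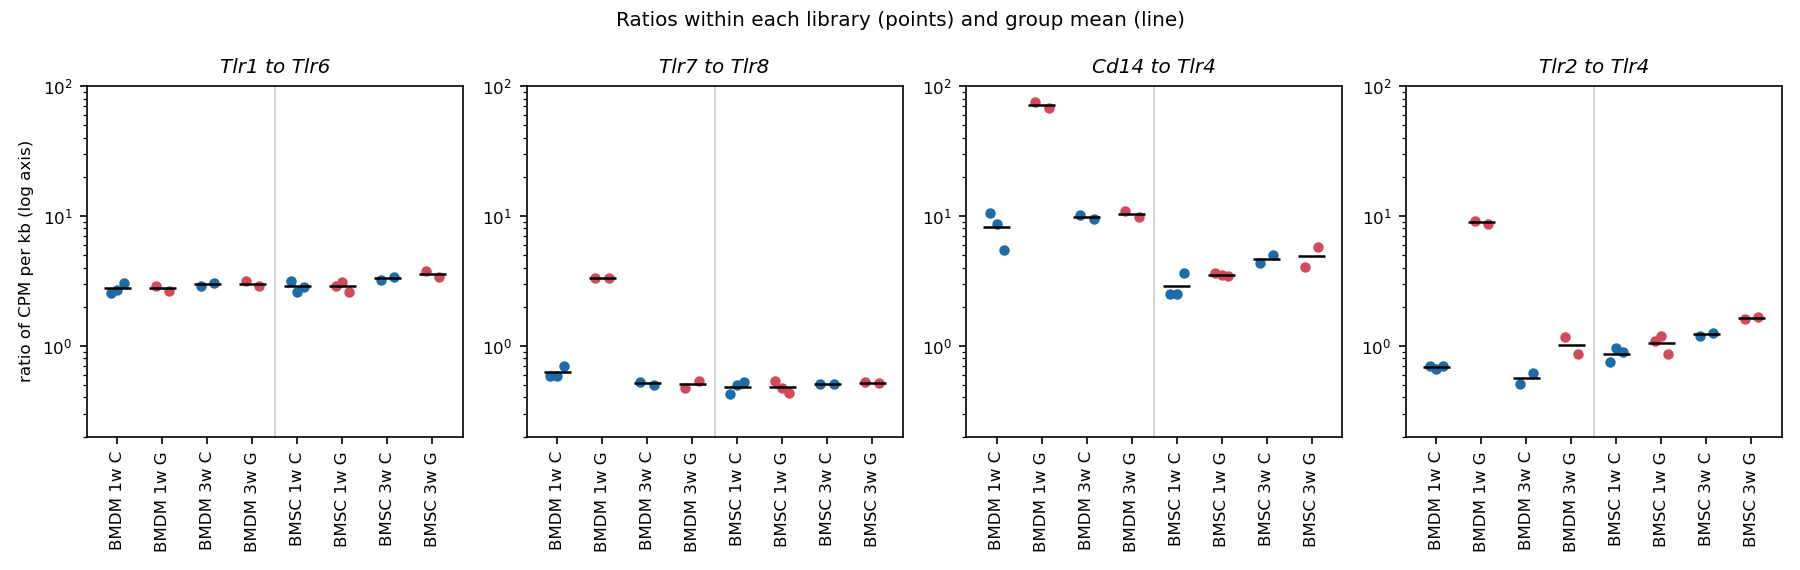
Ratio of 2 members per kb of exon within each library (log axis), with points for libraries (controls C in blue, hypergravity G in red) and a line for the group mean. The Tlr1 to Tlr6 ratio lies between 2.54 and 3.73 in every library, whereas Tlr7 to Tlr8, Cd14 to Tlr4 and Tlr2 to Tlr4 stand apart in the 1 week hypergravity BMDM, at 3.30 or more, 67.5 or more and 8.72 or more.

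Genes that act with the receptors were counted together with other pattern receptors, from lists of 75 symbols. The 75, called pathway genes below, include 15 other pattern receptors, 12 of them tested, and 3 other Toll-like receptors. In BMDM 67 of the 75 were tested. At 1 week 56 of them were called, 36 higher and 20 lower, which is 83.6% beside 61.4% of all genes. The lists were chosen with earlier results of these data known, so that share is a description. Among 24 adaptors and kinases, 15 rose, 4 fell and 5 did not pass, with a median log2 fold change of 0.56. The kinase gene Irak2 rose from 60.8 ± 4.25 to 209 ± 4.75 CPM (2.05 ± 0.09, edgeR adjusted p = 3.83e-08). Ticam1, the TRIF adaptor, rose by 1.76 ± 0.10 (adjusted p = 2.33e-07), and the ubiquitin ligase gene Traf6 rose by 1.86 ± 0.12 (adjusted p = 6.14e-07).

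Inhibitors of the pathway also moved in both directions. Of 10 tested inhibitors 5 rose, 2 fell and 3 did not pass, a share of calls near the 61.4% of all genes. Tnfaip3, which encodes the NF-kB brake A20, went from 40.4 ± 7.31 to 587 ± 51.0 CPM (4.13 ± 0.13, edgeR adjusted p = 6.81e-09). Socs1, a suppressor of cytokine signalling, rose by 4.76 ± 0.22 (adjusted p = 5.98e-08), and Tnip1, which encodes a partner of A20, by 2.03 ± 0.09 (adjusted p = 3.54e-08). Of 5 interferon regulatory factors 3 rose and 1 fell: Irf1 rose by 2.57 ± 0.09 (adjusted p = 1.25e-08), Irf8 by 1.06 ± 0.08 (adjusted p = 1.42e-06) and Irf7 by 1.99 ± 0.23 (adjusted p = 4.32e-05).

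Beside 30.8% of all genes called lower, 3 of 5 co-receptors and 8 of 11 genes of endosomal processing were called lower. Of the 5 tested co-receptors 1 rose, 3 fell and 1 did not pass. Ly86, whose protein MD-1 is the partner of the receptor homologue RP105, went from 160 ± 2.81 to 30.7 ± 0.15 CPM (-2.11 ± 0.09, edgeR adjusted p = 5.08e-08). Cd36, a scavenger receptor that helps TLR2 with some ligands, fell by 1.04 on the log2 scale (adjusted p = 4.3e-06). Of 11 genes for folding, transport and cleavage of the receptors 3 rose and 8 fell, with a median of -0.63. The lysosomal protease genes Lgmn and Ctsb changed by -0.92 ± 0.09 (adjusted p = 1.02e-05) and -0.69 ± 0.08 (adjusted p = 3.38e-05). Slc15a3, an endolysosomal peptide transporter, rose by 2.13 ± 0.10 (adjusted p = 5.35e-08). Unc93b1, the escort of the endosomal receptors, named here after its value was seen, went from 739 ± 24.9 to 390 ± 3.87 CPM (-0.66 ± 0.09, adjusted p = 8.55e-05).

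Other pattern receptors moved in both directions as well, but most rose. Of 12 tested 9 rose, 2 fell and 1 did not pass, with a median log2 fold change of 1.38. Of all genes tested, 30.5% were called higher and 30.8% lower. The inflammasome receptor gene Nlrp3 rose from 30.6 ± 8.96 to 375 ± 24.0 CPM (3.89 ± 0.19, edgeR adjusted p = 9.91e-08) and Nod2, a sensor of bacterial cell wall, by 3.22 ± 0.16 (adjusted p = 9.97e-08). Clec7a, the beta-glucan receptor Dectin-1, fell from 808 ± 63.6 to 85.4 ± 0.30 CPM (-2.98 ± 0.11, adjusted p = 1.44e-08). The other Toll-like receptor genes, Tlr5, Tlr11 and Tlr12, were too low to test in BMDM, with group means of at most 0.296 CPM.

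Markers of cell types were read beside these results. In the 1 week BMDM set the summed macrophage markers were 27980 to 30841 CPM in the controls and 22364 to 22750 CPM after hypergravity; 2 of 8 tested rose, 3 fell and 3 did not pass. Neutrophil markers summed to 197 to 404 CPM in the controls and 170 to 204 CPM after hypergravity, with 4 of 7 lower and Retnlg at 0 in both hypergravity libraries. Endothelial markers summed to 10.2 to 16.0 and 39.2 to 45.3 CPM, 2 of 5 being higher and 1 lower; Kdr supplied 32.3 CPM of the latter and the defining gene Cdh5 stood at 0.820 ± 0.168 CPM. Plasmacytoid dendritic cell markers summed to 247 to 321 and 637 to 669 CPM, with 2 of 4 higher. Bst2, which macrophages also express, supplied 602 CPM of that, and the defining gene Siglech stood at 0.0955 ± 0.0065 CPM. The part of these shifts in the receptor levels was not tested.

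After 3 weeks of hypergravity no member was called in BMDM, where 0.426% of all genes were. At an unadjusted p below 0.05 there were 3 members, Tlr2, Tlr1 and Tlr6, beside 592 of the 13842 genes tested. DESeq2 called 1 member, Tlr2. Tlr2 stood at 46.0 and 51.6 CPM in the controls and at 91.0 and 80.9 CPM after hypergravity, and the groups did not overlap. The change was 0.86 ± 0.18 (1.81-fold, edgeR adjusted p = 0.155), and over its alternatives the adjusted p ran from 8.21e-08 to 1. It fell below 0.05 with no count filter, in DESeq2 (0.00167), with only the groups compared and in the fit of all 19 libraries (0.0317). Tlr1 went from 87.0 and 90.8 to 101 and 108 CPM (0.27 ± 0.10, edgeR adjusted p = 0.932), and Tlr6 from 33.3 and 33.3 to 35.7 and 42.0 CPM (0.26 ± 0.11, edgeR adjusted p = 1), both without overlap. The other 7 members changed by -0.05 to 0.11. None of the 67 pathway genes was called by edgeR, 7 had an unadjusted p below 0.05, and DESeq2 called 2.

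The change itself differed between the sets in BMDM for 6 members. The test of the 3 week minus the 1 week change called 43.4% of all genes (21.9% higher and 21.5% lower), beside 6 of 10 members. It was lower at 3 weeks for Tlr2 (-1.72 ± 0.24, edgeR adjusted p = 0.000341), Cd14 (-1.96 ± 0.16, adjusted p = 1.01e-05), Tlr1 (-0.69 ± 0.14, adjusted p = 0.00237) and Tlr6 (-0.70 ± 0.14, adjusted p = 0.0031). It was higher at 3 weeks for Tlr4 (1.14 ± 0.24, adjusted p = 0.00386) and Tlr8 (2.14 ± 0.26, adjusted p = 0.000119). Each set has its own controls, so duration and set cannot be told apart.

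In BMSC the members had fitted changes below 0 at 1 week, all 10 of them, and 1 was called. At an unadjusted p below 0.05 there were 7 members, beside 2821 of the 15289 genes tested. The background was 2.72% of genes called, 2.47% lower, and the median log2 fold change was -0.34 over the members and 0.00 over all genes. Tlr9 stood at 21.0, 16.0 and 16.8 CPM in the controls and at 12.3, 11.6 and 11.5 CPM after hypergravity. The groups did not overlap, and the change was -0.64 ± 0.14 (0.641-fold, edgeR adjusted p = 0.0432). That call rested on most libraries: the adjusted p was 0.185 without control replicate 1 and 0.0956, 0.216 and 0.0871 without hypergravity replicate 1, 2 or 3. It was 0.0511 with DESeq2 size factors, 0.0605 with library size alone, 0.129 with only the groups compared and 0.269 in the fit of all 19 libraries.

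The next members by size in that comparison were Tlr13, Tlr4, Tlr7 and Tlr8. Tlr13 stood at 559, 479 and 547 CPM in the controls and at 366, 374 and 476 CPM after hypergravity (-0.41 ± 0.15, edgeR adjusted p = 0.185), and its groups were just apart. Tlr4 changed by -0.40 ± 0.12 (adjusted p = 0.0963), Tlr7 by -0.37 ± 0.11 (adjusted p = 0.0973) and Tlr8 by -0.37 ± 0.16 (adjusted p = 0.255). Without control replicate 3, Tlr4 (-0.50, adjusted p = 0.0235) and Tlr7 (-0.46, adjusted p = 0.0208) were called too. Tlr1 changed by -0.32 ± 0.12 (edgeR adjusted p = 0.195), Tlr6 by -0.30 ± 0.12 (adjusted p = 0.215) and Tlr3 by -0.17 ± 0.13 (adjusted p = 0.530). Cd14, at -0.08 ± 0.15, and Tlr2, at -0.13 ± 0.11, were nearest to 0.

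Marker sums varied widely among the BMSC libraries. At 1 week the stromal markers summed to 3249 to 9575 CPM in the controls and 4963 to 10340 CPM after hypergravity, with 0 of 10 called, and the macrophage markers to 22293 to 27492 and 23389 to 26371 CPM, with Mertk the only one of 8 called (lower). Both sums overlapped between groups, and their part in the receptor levels was not tested. Of 69 tested pathway genes 2 were called, both lower: the signalling gene Traf3 (-0.44 ± 0.09, edgeR adjusted p = 0.0294) and Mb21d1, which encodes the DNA sensor cGAS (-0.52 ± 0.11, adjusted p = 0.0368).

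At 3 weeks no member was called in BMSC, nor was any gene (0% of those tested). At an unadjusted p below 0.05 there was 1 member, Tlr3, beside 800 of the 15289 genes tested, and DESeq2 called 0 members. Tlr3 stood at 22.2 and 22.0 CPM in the controls and at 18.1 and 17.4 CPM after hypergravity, a change of -0.38 ± 0.16 (edgeR adjusted p = 0.899) without overlap. The other members lay between -0.26 (Tlr4) and 0.17 (Tlr2). None of the 69 pathway genes was called by edgeR or DESeq2, and 2 had an unadjusted p below 0.05. The test of the 3 week minus the 1 week change in BMSC called 0 members and 0% of all genes, and DESeq2 called 0 members. Its unadjusted p was below 0.05 for 1 member, beside 1423 of the 15289 genes tested.

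The 1 week change differed between the cell types for 8 members, beside 49.6% of all genes (24.8% higher and 24.8% lower). It was higher in BMDM for Tlr2 (2.70 ± 0.20, edgeR adjusted p = 1.46e-08), Cd14 (2.13 ± 0.20, adjusted p = 2.45e-07), Tlr1 (1.28 ± 0.16, adjusted p = 4.16e-06) and Tlr6 (1.26 ± 0.16, adjusted p = 4.84e-06). With less margin it was higher for Tlr7 (0.72 ± 0.26, adjusted p = 0.0316) and Tlr3 (0.63 ± 0.21, adjusted p = 0.0215). It was lower in BMDM for Tlr8 (-1.66 ± 0.26, adjusted p = 5.51e-05) and Tlr4 (-0.73 ± 0.21, adjusted p = 0.00846). Calls for Tlr3 were lost without replicate 1 or 2 of the BMDM controls (adjusted p = 0.055 and 0.0575), replicate 1 or 2 of the hypergravity BMDM (0.0693 and 0.0628) or replicate 1 of the BMSC controls (0.0629). Tlr7 was lost without the same libraries (adjusted p from 0.056 to 0.116) and without replicate 2 of the hypergravity BMSC (0.0674). Scaling by library size alone also ended both calls (adjusted p = 0.261 for Tlr3 and 0.233 for Tlr7), as did fitting only the groups compared (0.0625 and 0.0798). At 3 weeks the test of the difference between cell types called 0 members in edgeR and in DESeq2, beside 0.251% of genes. Its unadjusted p was below 0.05 for 3 members, beside 807 of the 15550 genes tested.

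Control libraries of both cell types held RNA of every member, and 5 were higher in BMDM over the 5 BMDM and 5 BMSC control libraries, beside 49.8% of genes called and 22.2% called higher. Cd14 differed most (1.98 ± 0.11, edgeR adjusted p = 1.35e-09), followed by Tlr7 (1.01 ± 0.14, adjusted p = 1.63e-05), Tlr8 (0.79 ± 0.14, adjusted p = 0.000126), Tlr4 (0.71 ± 0.11, adjusted p = 5.11e-05) and Tlr6 (0.29 ± 0.08, adjusted p = 0.0084). The Tlr6 call was lost without replicate 1 of the 3 week BMSC controls (0.24, adjusted p = 0.0621) and by library size alone (0.16, adjusted p = 0.0733). Tlr13 (0.01 ± 0.10) and Tlr2 (-0.02 ± 0.11) were nearest to 0. Per kb of exon, Cd14 was the highest member in both sets of control BMDM (273 and 282 CPM per kb), whereas Tlr13 was the highest in both sets of control BMSC (123 and 137 CPM per kb), where it held 41.7% and 40.0% of the summed mean level of the receptors. Tlr3 was the lowest in all 4 control groups. Of the other Toll-like receptor genes Tlr5, the flagellin receptor, averaged 1.35 ± 0.40 CPM in the 1 week BMSC controls and was lower in control BMDM (-2.75 ± 0.71, adjusted p = 0.00435). Macrophage markers were called higher in control BMDM for 5 of 8 and lower for 2, and neutrophil markers lower for 8 of 8. Stromal markers were called lower for 9 of 10, endothelial for 5 of 5, B cell for 4 of 5 and T and NK cell markers for 3 of 4; the part of these in the receptor levels was not tested.

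Controls of the 2 sets were also compared. In BMSC, 3 members were higher in the 3 week than in the 1 week controls, beside 7.05% of all genes called and 3.32% called higher: Tlr3 (0.71 ± 0.14, edgeR adjusted p = 0.0201), Tlr7 (0.47 ± 0.12, adjusted p = 0.0395) and Cd14 (0.65 ± 0.16, adjusted p = 0.0395). All 3 calls were lost without replicate 1 (adjusted p from 0.133 to 0.222) or replicate 2 of the 3 week controls (adjusted p from 0.185 to 0.323). Cd14 was also lost without replicate 1 (0.0843) or 2 (0.0741) of the 1 week controls, and Tlr7 without replicate 2 of those (0.0759). The stromal markers averaged 5654 ± 3425 CPM in the 1 week and 1917 ± 335 CPM in the 3 week controls, and their part was not tested. In BMDM edgeR called 0 members between the control sets, beside 3.97% of all genes, and DESeq2 called 1 member. There 4 members had an unadjusted p below 0.05, beside 2654 of the 13842 genes tested. Without replicate 1 or 3 of the 1 week controls edgeR called 2 or 3 members. All 7 tested neutrophil markers were called lower in the 3 week than in the 1 week BMDM controls, with summed levels of 21.7 to 45.4 and 197 to 404 CPM, and their part was not tested.

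For 5 members the genes with the most similar profile were found among 9861 genes. These averaged 5 CPM or more, and symbols that start with Gm and a digit or end in Rik were left out. Likeness was the root mean square difference of the log2(CPM + 0.5) group means, each centred on its own mean over the 8 groups. Closest to Tlr2 were Nfkbia (0.192), which encodes an inhibitor of NF-kB, its relative Nfkbib (0.198) and the kinase gene Pim1 (0.208). Closest to Cd14 were Tmem178 (0.263), Slc2a6 (0.381) and Slc28a2 (0.384). Tlr4 had the closest matches in Tmem181b-ps (0.0709) and the lysosomal enzyme genes Ids (0.0925) and Gusb (0.0965). Those of Tlr3 were Tor1aip1 (0.115), Mtfr2 (0.116) and Il2rg (0.120), and those of Tlr9 were BC005537 (0.147), Asah2 (0.162) and Cd180 (0.173). These are descriptions over 8 group means. With 1 added to the CPM in place of 0.5, 14 of the 15 named genes stayed, and Sqstm1 (0.206) replaced Pim1 for Tlr2.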

How the data were processed

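The authors deposited raw counts, with 46095 gene symbols as rows and the 19 libraries as columns. Per the submitters' processing notes the aligner was HISAT2 2.0.4 and the build mm10. Which program counted reads, with which annotation and strand setting, is not given in the sources used. Groups came from titles and labels.

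Counts were tested with edgeR 4.0.16 (R 4.3.3, limma 3.58.1) by the quasi-likelihood test, with TMM scaling, the filterByExpr filter and 1 coefficient per group. BMDM (9 libraries, 13842 genes, 5 residual degrees of freedom) and BMSC (10 libraries, 15289 genes, 6) were fitted separately, and cell types were compared in a fit of all 19 (15550 genes, 11). Every p was adjusted by Benjamini-Hochberg over all genes of a fit, for 11 comparisons that are not adjusted for each other, and a gene was called below 0.05. The script was tested on simulated data. Exonic lengths came from GENCODE M21 and promoters from RefSeq. Errors of CPM are SD. Floors cover counting error only. Replicates differed by 4.3 to 97.9 times the counting variance, so none was treated as a repeat.

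Members and gene lists were chosen with earlier results of these data known. Every member is named in each hypergravity comparison or covered by a range; from each other list up to 3 called genes with the smallest p are named, and all genes of lists of 3 or fewer. Alternatives were DESeq2 1.42.0, its size factors in edgeR, library size alone, no filter, a 1 CPM filter, only the groups compared, all 19 libraries, a block for the replicate number, a test against a log2 change of 1, and omission of each library.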

Additional observations from a re-analysis of the deposited data

Results flagged for a closer look

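The change with hypergravity differed, by an edgeR test of the difference itself, between sets or between cell types for these members (log2, adjusted p below 0.05). In BMDM the 3 week minus the 1 week change was -0.69 for Tlr1, -1.72 for Tlr2, 1.14 for Tlr4, -0.70 for Tlr6, 2.14 for Tlr8 and -1.96 for Cd14. At 1 week the BMDM minus the BMSC change was 1.28 for Tlr1, 2.70 for Tlr2, 0.63 for Tlr3, -0.73 for Tlr4, 1.26 for Tlr6, 0.72 for Tlr7, -1.66 for Tlr8 and 2.13 for Cd14. These contrasts share the 1 week BMDM libraries, so the pair of lists is not independent.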

How the results depend on the processing

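With 2 or 3 libraries per group, 1 library can decide a call. In BMDM at 1 week the calls of Cd14, Tlr2 and Tlr8 held in every alternative run. Scaling by library size alone moved the median gene there from -0.03 to -0.29, and Tlr3 lost its call (0.20, adjusted p = 0.340) with no direction reversed. Asking for a log2 change of at least 1 left 3 members, 21 pathway genes and 2830 genes there (main 8, 56 and 8494), and 3, 3 and 1 members for the 3 week minus 1 week change in BMDM, the difference between cell types at 1 week and between controls (main 6, 8 and 5). Without 1 library each, 6 to 9 members were called in BMDM at 1 week, beside 6828 to 9518 genes, with Tlr9 from -0.85 to 0.16. With no filter all 10 were called there, with Tlr7 at 0.30 (adjusted p = 0.0237) and Tlr9 at -0.57 (adjusted p = 0.000783).

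At 3 weeks in BMDM (main 0 members, 0 pathway genes, 59 genes) there were 1, 3 and 205 with no filter, 1, 2 and 94 in DESeq2, 1, 3 and 139 with only the groups compared, 1 member with all 19 libraries, 34 genes for a log2 change of at least 1, and 35 to 50 genes without 1 library. Tlr4 turned to -0.027 by library size alone. Without 1 library each, log2 changes ran from -0.11 to 0.12 (Tlr4), -0.17 to 0.066 (Tlr9), -0.072 to 0.056 (Tlr13) and -0.0077 to 0.20 (Cd14).

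In BMSC at 1 week (main 1, 2 and 416) there were 2, 6 and 1313 with no filter, 884 genes in DESeq2, 0, 0 and 0 with only the groups compared or for a log2 change of at least 1, 0, 0 and 2 with all 19 libraries, 0 members with DESeq2 size factors, 0 members and 0 pathway genes by library size alone, and 0 to 3, 0 to 5 and 0 to 1109 without 1 library. Leaving out control replicate 1 or hypergravity replicate 2 gave 0 genes, and leaving out control replicate 3 gave 1109. At 3 weeks (main 0) there were 1 pathway gene and 592 genes with no filter and 1 gene in DESeq2. Without 1 library each, log2 changes there ran from -0.28 to 0.014 (Tlr1), -0.21 to 0.059 (Tlr9) and -0.46 to 0.030 (Cd14). Between control sets, members called in BMDM (main 0) were 2 with no filter, 1 in DESeq2, 1 with all 19 libraries and 0 to 3 without 1 library; in BMSC (main 3) they were 1 by library size alone, 6 with no filter, 5 in DESeq2, 0 with only the groups compared or for a log2 change of at least 1, and 0 to 3 without 1 library. The causes were not tested. For comparisons other than hypergravity minus control, the number of all genes called in each alternative was not recorded. Member counts of those alternatives therefore have no share of all genes beside them and describe only the dependence on processing.

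Whether the replicate numbers pair the samples could not be decided. Same-numbered deviations correlated from -0.198 to 0.584, and differently numbered ones from -0.653 to 0.613. In a group of 2 libraries the deviations are equal and opposite, so such correlations cannot settle it. With the replicate block, Tlr9 in BMDM at 1 week turned to 0.16 and Tlr7 was called. Only the 1 week controls have a replicate 3 in BMDM, so the block sets that library aside, as its omission does. For comparisons that use those controls, the block is therefore no separate check. At 3 weeks in BMDM 1 member, 3 pathway genes and 183 genes were called with the block. In BMSC at 1 week it called 657 genes, and between BMDM control sets 4 members. With the crossed pairing, chosen after seeing the data, 1 member, 6 pathway genes and 267 genes were called at 3 weeks in BMDM.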
